A study of Homo sapiens with 6 samples.

Results

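Human chromosome 19 is known for its tandem clusters of C2H2 zinc finger (ZNF) genes. Their proteins bind DNA through runs of finger domains held by paired cysteines and histidines. Many also hold a KRAB domain, which recruits the scaffold TRIM28 (KAP1) and with it the histone H3 lysine methyltransferase SETDB1 and HP1 proteins, a route best known for silencing transposable elements. The genes described here are the protein-coding genes named ZNF and a number, with or without a letter, whose GENCODE start on chromosome 19 of GRCh38 is at or above position 26000000. There were 163 of them among 63086 genes in the table. Another 672 protein-coding genes of the same arm served as the background, which includes zinc finger genes with other kinds of names.

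Levels were compared between 3 RNA-seq libraries of DUS1L knockout A375 cells and 3 of wild-type A375 cells. A375 is an established line from a human melanoma, and DUS1L encodes a dihydrouridine synthase that modifies tRNA. Knockout cells came from CRISPR/Cas9 editing and passed clonal selection, while wild-type cells were grown alongside them and not targeted; no other treatment is labelled for either genotype. The number of clones is not given in the sources used here, so the effect of the knockout and the character of a clone cannot be told apart. DUS1L itself was at 55.4, 54.7 and 53.1 CPM (counts relative to the scaled library size) in knockout libraries and 80, 75.7 and 77 CPM in wild-type libraries. Its groups did not overlap, with a log2 fold change of -0.51 (SE 0.06, edgeR quasi-likelihood adjusted p = 1.7e-06), so the transcript was lower in the labelled knockout but still present. Libraries held 17121315 to 18861514 estimated counts, and 3 counts corresponded to 0.16 to 0.18 CPM. Melanoma markers were all detected (9 of 9 at or above 1 CPM), with summed levels of 3860.1 to 4024 CPM in knockout and 5186 to 5442 CPM in wild-type libraries. Of these 9 markers 7 were called lower, against 20.7% of all tested genes, while MITF and S100A1 were not called. Most of the summed level was VIM, at 2675 to 2847 CPM in knockout and 3755 to 3952 CPM in wild-type libraries. The pigment genes TYR, DCT, PMEL and MLANA were at or below 0.488 CPM in each library. Fibroblast markers (5 genes, none called) summed to 64 to 122 CPM in knockout and 28.2 to 77.8 CPM in wild-type libraries. Keratinocyte markers (5 genes, KRT5 and KRT1 at 0) summed to 50 to 59 CPM in knockout and 53.2 to 58.8 CPM in wild-type libraries. Most of that was KRT10, at 46.5 to 56.2 CPM in knockout and 51 to 56.5 CPM in wild-type libraries. The part of any of these in the results was not tested. In these bulk libraries fewer cells of a type and less RNA per cell cannot be told apart.

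All 163 ZNF genes had a count in at least 1 library, and 156 passed the filter on low counts. Of these, 149 reached the filter's minimum in all libraries of both groups. ZNF610 and ZNF578 reached it in all 3 libraries of the knockout group only, and ZNF536 and ZNF573 in all 3 of the wild-type group only, while ZNF540, ZNF221 and ZNF835 reached it in 3 libraries of neither group. The 7 untested genes (ZNF382, ZNF541, ZNF114, ZNF534, ZNF667, ZNF154 and ZNF135) never exceeded 15 counts in a library. Most of the family was expressed at a low level: the mean CPM of a tested member ran from 0.501 to 142, with a median of 9.88, against a median of 26 for the other tested protein-coding genes of the arm.

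The ZNF genes of the long arm were mostly higher in knockout cells. Of the 156 tested, 97 (62.2%) rose and 2 (1.28%) fell, while 57 did not pass the test (edgeR quasi-likelihood, Benjamini-Hochberg adjusted p under 0.05 over all genes tested). Over all 16046 tested genes 20.5% were called higher and 20.7% lower. Among the other 370 tested protein-coding genes of the arm 86 (23.2%) were higher and 97 (26.2%) lower. The median log2 fold change was 0.51 for the ZNF genes, with the middle 50% of them between 0.20 and 0.73, and -0.01 for the other genes of the arm, with their middle 50% between -0.25 and 0.26. The fold change was above 0 on the log2 scale for 136 of the 156. The 97 include ZNF610 and ZNF578, which passed the filter through the knockout libraries only.

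Differences were small for single genes and similar from library to library. Summed over all 163 genes, the family made up 2389, 2392 and 2353 CPM in knockout libraries, against 1828, 1725 and 1764 CPM in wild-type libraries. The means were 2378 ± 21.7 and 1772 ± 51.6 CPM (SD, n = 3 each), a ratio of 1.34. The median tested member lay at 12, 12 and 11.6 CPM in knockout libraries and at 8.58, 7.94 and 8.14 CPM in wild-type libraries. Every knockout library lay above every wild-type library for 103 members (66.0%), against 25.4% of all tested genes, and below for 3 (1.92%), against 25.8% of all tested genes. Of the 97 members called higher, 92 had groups that did not overlap. The call and the separation rest on the same values, and the share among all genes called higher was not computed. Only 10 of the 97 were 2-fold or more higher. A test against a 1.5-fold change called 12 members higher and 0 lower. The background for that test was 2.31% of all genes higher and 1.27% lower, and for the other genes of the arm 19 higher and 3 lower of 370.

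**Figure D1:**
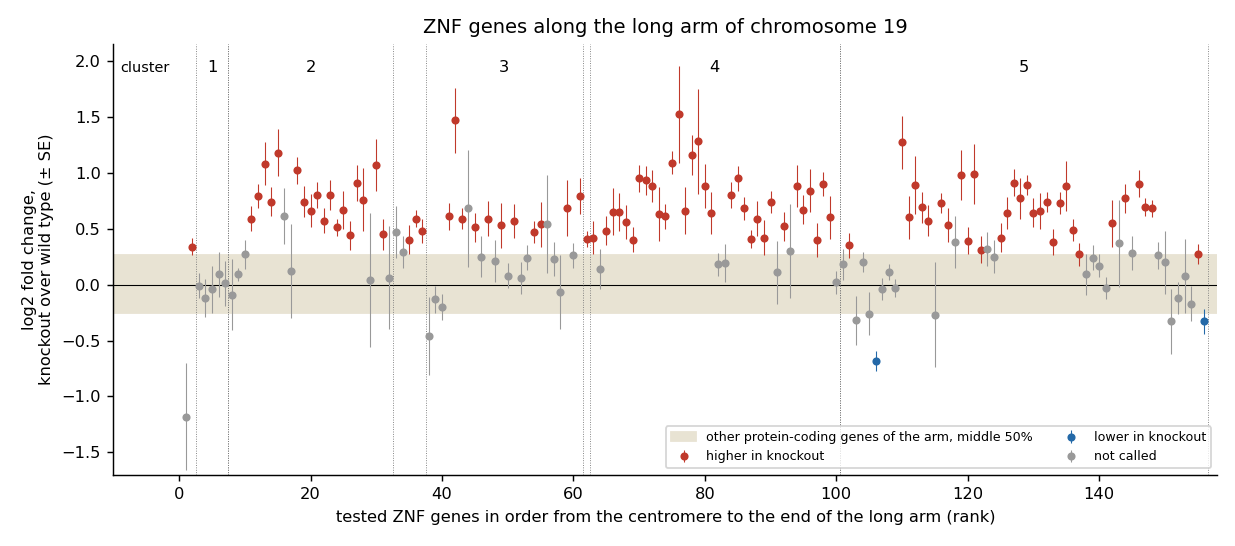
Log2 fold change (knockout over wild type, with its standard error) of the 156 tested ZNF genes in order along the chromosome 19 long arm, with dotted lines at the bounds of the 5 clusters and a band for the middle 50% of the other protein-coding genes of the arm (-0.25 to 0.26). Most points lie above the band, 97 of them called higher, while the 5 points of cluster 1 lie near 0.

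RefSeq promoters, running from 250 bases before to 50 bases after a gene's start, were available for 143 of the 163 genes. They were searched on both strands for CCGGAAG, a core that many ETS family factors recognise. It was present in 70 of 143 promoters (49.0%), against 56 of 525 (10.7%) for the other protein-coding genes of the arm and 2244 of 15812 (14.2%) for all protein-coding genes. ZNF promoters elsewhere held it in 28 of 73 on the short arm (38.4%) and in 73 of 214 outside chromosome 19 (34.1%), and these differences were not tested. Of 80 matches in ZNF promoters 69 lay within 100 bases of the start. A match was found in 50 of 85 promoters of genes called higher (58.8%) and in 18 of 50 of genes not called (36.0%). Put the other way, 50 of 69 tested members with a match rose (72.5%, median 0.60), against 35 of 68 without one (51.5%, median 0.41). Members with a KRAB pattern (described below) held the match in 59 of 108 promoters (54.6%), and the others in 11 of 35 (31.4%). Among tested members with a KRAB pattern, 44 of 58 with a match rose (75.9%, median 0.60), against 28 of 46 without one (60.9%, median 0.49). Outside the members, 24.9% of 1964 tested genes with a match and 20.6% of 8735 without one were higher. Median promoter GC content was 61.0% in members and 62.7% in all protein-coding genes. The other motifs searched were rarer in the members: AAGATGGC in 10 of 143 (6.99%), against 3.91% of all protein-coding promoters, GCGCATGCG in 4 (2.8%), against 2.76%, and ACTACAAT in 1 (0.699%), against 0.696%. In 1 member AAGATGGC and CCGGAAG overlapped. These are matches of letters, not sites shown to be bound.

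The promoters of 4 genes that rose, taken from 4 stretches of the arm, and of ZNF580, which fell, are given here to compare where the match lies, with CCGGAAG or its reverse complement CTTCCGG in capitals. They are 300 bases each, written 5′ to 3′ on the gene's strand, from RefSeq on GRCh38.p14. They lie at chr19:36916242-36916541 (ZNF829, minus strand), chr19:43935233-43935532 (ZNF45, minus strand), chr19:52048789-52049088 (ZNF432, minus strand), chr19:57559814-57560113 (ZNF550, minus strand) and chr19:55640752-55641051 (ZNF580, plus strand).
ZNF829: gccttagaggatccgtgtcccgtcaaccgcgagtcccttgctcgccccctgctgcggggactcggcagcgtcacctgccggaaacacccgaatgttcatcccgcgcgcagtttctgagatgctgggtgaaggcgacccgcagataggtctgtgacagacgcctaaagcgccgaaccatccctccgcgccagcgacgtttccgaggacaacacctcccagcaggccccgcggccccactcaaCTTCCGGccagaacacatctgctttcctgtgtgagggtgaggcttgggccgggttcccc
ZNF45: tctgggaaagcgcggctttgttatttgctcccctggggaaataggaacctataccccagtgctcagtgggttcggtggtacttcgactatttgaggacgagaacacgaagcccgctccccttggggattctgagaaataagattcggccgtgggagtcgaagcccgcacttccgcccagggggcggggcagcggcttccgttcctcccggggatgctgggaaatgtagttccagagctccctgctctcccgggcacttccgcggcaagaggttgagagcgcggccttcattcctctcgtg
ZNF432: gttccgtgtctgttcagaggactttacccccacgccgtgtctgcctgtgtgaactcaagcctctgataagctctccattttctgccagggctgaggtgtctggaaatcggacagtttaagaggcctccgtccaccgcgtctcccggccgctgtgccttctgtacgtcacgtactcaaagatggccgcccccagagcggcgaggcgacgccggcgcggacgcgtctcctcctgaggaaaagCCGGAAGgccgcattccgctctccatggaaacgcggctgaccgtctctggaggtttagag
ZNF550: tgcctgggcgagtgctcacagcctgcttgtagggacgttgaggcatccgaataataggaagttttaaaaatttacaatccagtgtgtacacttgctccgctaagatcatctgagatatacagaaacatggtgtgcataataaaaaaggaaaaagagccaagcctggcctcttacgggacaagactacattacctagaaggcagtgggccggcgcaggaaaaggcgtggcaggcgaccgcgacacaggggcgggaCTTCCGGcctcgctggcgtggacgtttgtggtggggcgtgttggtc
ZNF580: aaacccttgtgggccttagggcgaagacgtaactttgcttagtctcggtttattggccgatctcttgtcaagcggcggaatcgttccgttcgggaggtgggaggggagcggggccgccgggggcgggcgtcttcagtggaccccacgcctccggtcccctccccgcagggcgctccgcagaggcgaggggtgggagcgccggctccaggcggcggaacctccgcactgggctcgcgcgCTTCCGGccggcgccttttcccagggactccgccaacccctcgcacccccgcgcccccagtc
The RefSeq starts of ZNF432 and ZNF580 lie inside their longer GENCODE genes. ZNF829, ZNF432, ZNF550 and ZNF580 each hold 1 match in the last part of the window, near the start. ZNF45 holds 0, and rose, while ZNF580 holds 1, and fell, so a match was seen in genes of either direction.

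Split at gaps of at least 1 Mb between neighbouring members, 153 of the 163 genes fell into 5 clusters of 5 or more, numbered from the centromere. A gap of 2 Mb left 3 clusters, which joined the first to the second and the fourth to the fifth, with 18 of 30, 14 of 29 and 64 of 95 tested genes higher and medians of 0.58, 0.47 and 0.53. The genes of the first cluster did not change by the test. It holds 5 genes from ZNF302 to ZNF792 (chr19:34677639-34964229), all tested, of which 0 rose and 0 fell, with a median of -0.01. Their summed level was 40.5, 41.9 and 41.5 CPM in knockout libraries and 49.5, 37.7 and 38.2 CPM in wild-type libraries. The wild-type libraries lay on both sides of the knockout libraries. ZNF181, for example, was at 7.33, 6.65 and 7.16 CPM in knockout and 9.76, 7.37 and 5.87 CPM in wild-type libraries, and its log2 fold change of -0.12 (SE 0.17, edgeR adjusted p = 0.617) turned positive without wild-type replicate 1. The log2 fold changes of the 5 genes ran from -0.12 to 0.09.

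The second cluster had mostly higher genes. It spans 26 genes from ZNF565 to ZNF573 (chr19:36182276-37817300); of 25 tested, 18 rose and 0 fell, with a median log2 fold change of 0.66. The summed level was 439 ± 9.94 CPM in knockout and 321 ± 14.8 CPM in wild-type libraries (SD, n = 3 each). Only 3 other protein-coding genes within its bounds were tested, all zinc finger genes themselves (ZFP14, ZFP82 and ZFP30), of which the last 2 rose. ZNF829 (ENSG00000185869.15, chr19:36888124-36916291, minus strand) was at 19.1, 17.5 and 16 CPM in knockout libraries, against 8.11, 8.78 and 8.96 CPM in wild-type libraries. Its lowest knockout library was well above its highest wild-type library, and its log2 fold change was 1.02 (SE 0.12, edgeR adjusted p = 1.04e-06). ZNF850, which with 29 matches to the finger pattern has the longest array of the family, was at 7.65, 6.76 and 5.42 CPM in knockout libraries, against 2.18, 3.14 and 3.43 CPM in wild-type libraries (log2 fold change 1.18, SE 0.21, adjusted p = 0.000161 by edgeR). ZNF461 was at 13.1, 15.2 and 11.2 CPM in knockout libraries, against 8.52, 4.88 and 5.35 CPM in wild-type libraries, and ZNF571 at 6.22, 6.59 and 5.08 CPM, against 3.59, 3.04 and 1.86 CPM. Neither pair of groups overlapped, and the log2 fold changes were 1.08 and 1.07 (edgeR adjusted p = 0.000218 and 0.000753). ZNF568, whose mouse counterpart is known to repress an imprinted placental transcript of Igf2, was at 19.2, 16.9 and 15.8 CPM in knockout libraries, against 12.9, 8.94 and 9.25 CPM in wild-type libraries. Its groups did not overlap either, and its log2 fold change was 0.74 (SE 0.14, edgeR adjusted p = 0.000233).

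In the third cluster, fewer than 50% of the genes were called higher. It holds 24 genes from ZNF575 to ZNF296 (chr19:43525497-45076478), all tested, of which 11 rose and 0 fell, with a median of 0.49. Summed levels were 308, 298 and 284 CPM in knockout and 250.5, 229 and 225 CPM in wild-type libraries. Here 20 other protein-coding genes were tested within the bounds, 6 of them higher and 3 lower, with a median of 0.08. ZNF404 (ENSG00000176222.10, chr19:43872365-43901385, minus strand) showed 4.25, 5.66 and 2.88 CPM in knockout libraries and 1.23, 1.95 and 1.4 CPM in wild-type libraries. The groups were apart but the knockout libraries differed among themselves, and the log2 fold change of 1.47 had an SE of 0.29 (edgeR adjusted p = 0.000359). ZNF45 was higher and tighter, at 55.1, 45.1 and 51.6 CPM in knockout and 37, 34 and 29.8 CPM in wild-type libraries, with a log2 fold change of 0.59 (SE 0.09, edgeR adjusted p = 2.81e-05). ZNF224, known as a transcriptional repressor, had a log2 fold change of 0.08 and was not called (edgeR adjusted p = 0.608). The count of genes called higher in this cluster was 8 to 12 when single libraries were left out.

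In the fourth cluster most genes were called higher. It spans 39 genes from ZNF175 to ZNF331 (chr19:51571283-53580269), of which 38 hold a KRAB pattern. Of 38 tested, 32 rose and 0 fell, all 38 had a positive fold change, and the median was 0.65. The 32 include ZNF610 and ZNF578, which passed the filter through the knockout libraries only. With single libraries left out 24 to 29 were called higher, against 17 to 19 of 25 in the second cluster. The summed level was 525 ± 10.7 CPM in knockout and 343 ± 10.9 CPM in wild-type libraries (SD, n = 3 each). The 3 other protein-coding genes tested within its bounds had 0 calls in either direction and a median of -0.03. ZNF480 (ENSG00000198464.14, chr19:52297169-52325922, plus strand) was at 34.7, 41 and 33.1 CPM in knockout libraries, against 16.6, 18.8 and 15.5 CPM in wild-type libraries. The groups were far apart, with a log2 fold change of 1.09 (SE 0.10, edgeR adjusted p = 4.57e-08). ZNF528 was at 8.08, 10.1 and 9.93 CPM in knockout and 4.53, 3.36 and 4.71 CPM in wild-type libraries, and ZNF28 at 20.9, 21.1 and 24.4 CPM in knockout and 10.7, 11.4 and 12.2 CPM in wild-type libraries. Neither gene's groups overlapped, and the log2 fold changes were 1.16 and 0.95 (edgeR adjusted p = 2.2e-05 and 8.56e-07). ZNF432 was at 24.3, 22.2 and 21.7 CPM in knockout libraries and 13.8, 11.2 and 10.4 CPM in wild-type libraries (log2 fold change 0.95, SE 0.12, adjusted p = 1.84e-06 by edgeR). Its exons overlap those of another gene, so its reads and those of its neighbour may be divided between them. The same limit applies to ZNF480, ZNF28 and ZNF808 in this cluster, and to 99 of the 156 tested members in all. ZNF808 was at 8.39, 5.78 and 7.11 CPM in knockout libraries, against 4.7, 3.41 and 3.49 CPM in wild-type libraries (log2 fold change 0.88, adjusted p = 0.00128 by edgeR); loss of this gene in people is known to impair pancreas development. ZNF350 (ZBRK1), a KRAB repressor known to bind BRCA1, was at 8.02, 6.88 and 8.74 CPM, against 5.29, 5.31 and 4.42 CPM in wild-type libraries, with a log2 fold change of 0.65 (edgeR adjusted p = 0.00378). The last gene of the cluster, the imprinted ZNF331, was at 24.5, 23.2 and 27 CPM in knockout and 24.5, 21.9 and 27.3 CPM in wild-type libraries, with overlapping groups and a log2 fold change of 0.02 (edgeR adjusted p = 0.89).

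The fifth cluster, nearest the telomere, was the most mixed. It holds 59 genes from ZNF628 to ZNF446 (chr19:55476617-58481230); of 56 tested, 31 rose and 2 fell, with a median of 0.37. Summed levels were 912, 888 and 887 CPM in knockout and 705, 685 and 700.3 CPM in wild-type libraries. Of 19 other protein-coding genes tested within its bounds 8 were higher and 4 lower, with a median of 0.29. These include zinc finger genes with other names. Of those, ZIK1, ZFP28 and ZSCAN18 were called higher (log2 fold changes 0.62, 0.64 and 0.77), while ZSCAN5A and ZSCAN22 were not called. When a gap of 0.5 Mb was used instead, the cluster divided into a stretch from ZNF628 to ZNF835, with 6 of 15 tested genes higher, and one from ZNF264 to ZNF446, with 25 of 41 higher. ZNF582 was at 6.16, 4.45 and 6.77 CPM in knockout and 3, 2.49 and 1.69 CPM in wild-type libraries, a log2 fold change of 1.27 (SE 0.24, edgeR adjusted p = 0.000216). ZNF550 was at 36.2, 38.5 and 32.8 CPM in knockout libraries, against 20.9, 18.6 and 18.6 CPM in wild-type libraries, and ZNF264 at 32.6, 33.1 and 31.1 CPM, against 19.9, 19.1 and 19.5 CPM. The groups of these 3 genes did not overlap. ZNF550 and ZNF264 had log2 fold changes of 0.89 and 0.73, with SE 0.09 for both (edgeR adjusted p = 1.93e-07 and 1.27e-06). ZNF274, which holds both a KRAB and a SCAN domain and is known to bind the 3′ ends of other ZNF genes and recruit SETDB1 there, was at 56.1, 51.6 and 57.3 CPM in knockout libraries, against 35.3, 31.8 and 35.4 CPM in wild-type libraries. Its libraries were again well apart, with a log2 fold change of 0.69 (SE 0.08, edgeR adjusted p = 4.3e-07).

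Both members that fell lie in this cluster, and neither matched the KRAB pattern. The pattern can miss a KRAB domain, so this does not show that either gene lacks one. ZNF580 was at 19.8, 16.8 and 17.9 CPM in knockout libraries and 28.4, 29 and 30.1 CPM in wild-type libraries. Its knockout libraries lay below all wild-type libraries, with a log2 fold change of -0.68 (SE 0.09, edgeR adjusted p = 7.26e-06). The exons of ZNF580 overlap those of another gene, and so do those of ZNF446. Both genes had a fractional count in some library, so their reads and those of a neighbour may be divided between them. ZNF446, one of 3 members with a SCAN domain, was at 12.4, 11.6 and 13.1 CPM in knockout and 15, 15.4 and 16.3 CPM in wild-type libraries. The groups were apart but close, with a log2 fold change of -0.33 (SE 0.11, edgeR adjusted p = 0.0231), and the call was lost without knockout replicate 1, knockout replicate 2, wild-type replicate 2 or wild-type replicate 3, with edgeR adjusted p between 0.0508 and 0.0802. ZNF536, a single gene near the centromere, had the lowest fold change of the family, at 0.319, 0.52 and 0.338 CPM in knockout and 0.999, 0.759 and 0.931 CPM in wild-type libraries. Its groups did not overlap, but its log2 fold change of -1.18 was not called (edgeR adjusted p = 0.0552). ZNF610 had the highest fold change, at 1.12, 1.16 and 1.69 CPM in knockout and 0.47, 0.488 and 0.407 CPM in wild-type libraries (log2 fold change 1.52, adjusted p = 0.00771 by edgeR). ZNF610 and ZNF578 passed the filter through their knockout libraries only, so their calls are not independent of the filter. ZNF536 passed it through its wild-type libraries only. ZNF610 and ZNF536 were named after their values were seen.

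**Figure D2:**
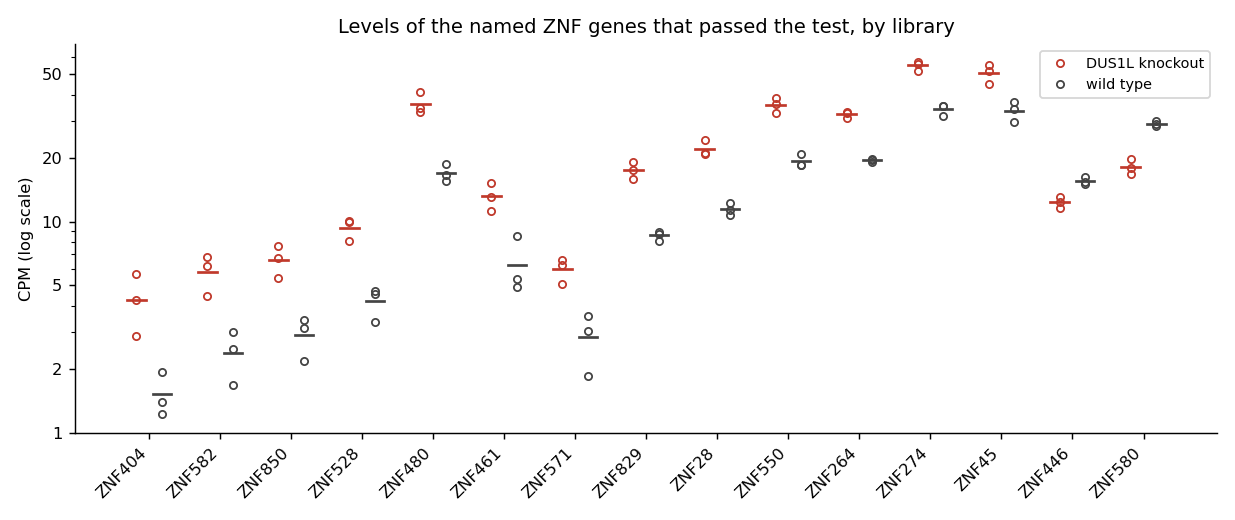
CPM on a log axis in each of the 3 knockout (left) and 3 wild-type (right) libraries for the named ZNF genes that passed the test, with circles for libraries and short lines for group means. The knockout libraries lie above the wild-type libraries for all but ZNF580 and ZNF446 at the right, where the order is turned.

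The 4 members with the highest level per kb of exon did not pass the test. ZNF146, which has 10 fingers and no KRAB pattern, was at 136, 153 and 152 CPM in knockout libraries and 145, 134 and 135 CPM in wild-type libraries. It had the highest level per kb of exon (34.4 CPM per kb), its groups overlapped, and its log2 fold change of 0.09 was not called (edgeR adjusted p = 0.235). ZNF787 (15.6 CPM per kb), ZNF581 (13.3 CPM per kb) and ZNF428 (11.3 CPM per kb) followed, with log2 fold changes of 0.11, -0.04 and -0.20 that did not pass the test (edgeR adjusted p = 0.253, 0.782 and 0.176). ZNF787 was called higher with the length and GC correction (0.21, edgeR adjusted p = 0.00878), ZNF428 was called lower without wild-type replicate 1 (-0.30, edgeR adjusted p = 0.0445), and the sign of ZNF581 turned under 4 alternatives. None of these 4 genes has a KRAB pattern. The next by level per kb, ZNF45 (9.57 CPM per kb), ZNF580 (9.08 CPM per kb) and ZNF574 (7.36 CPM per kb), were all called, ZNF580 lower and the others higher. Away from the clusters, ZNF473, known to bind the U7 snRNP in histone pre-mRNA processing, was at 48.3, 47.7 and 49.5 CPM in knockout libraries and 37.9, 36.4 and 35.5 CPM in wild-type libraries. Its groups did not overlap, and its log2 fold change was 0.41 (edgeR adjusted p = 0.00011). By level, 16 of 38 tested members under 5 CPM rose, 51 of 71 from 5 to 15 CPM, and 30 of 47 at 15 CPM or more, with medians of 0.50, 0.57 and 0.41. Over all tested genes of any level 20.5% were higher. Shares of all genes at each level were not computed, so the part of count depth in these calls was not tested.

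Near-identical members can trade reads, so pairs were read with care. ZNF585A was at 18.8, 20.3 and 17.4 CPM in knockout and 12.1, 10.1 and 10.4 CPM in wild-type libraries, and ZNF585B at 18.1, 17.5 and 19.1 CPM in knockout and 11.9, 11.8 and 13.1 CPM in wild-type libraries. Both rose, by log2 fold changes of 0.80 and 0.57 (edgeR adjusted p = 1.54e-05 and 0.000264). Within the pair ZNF780A and ZNF780B, the first was called higher (0.40, edgeR adjusted p = 0.016) and the other was not (0.29, adjusted p = 0.103). ZNF587 had a log2 fold change of -0.03 and its close relative ZNF417 one of 0.55, which was called (edgeR adjusted p = 0.0446) although its groups overlapped. A fractional count, which dividing reads between genes can give, occurred in some library for 67 of the 156 tested members (42.9%), against 36.8% of all tested genes. The 89 members with whole counts gave 56 higher (62.9%) and 0 lower with a median of 0.51, and the 67 with fractional counts 41 higher and 2 lower with a median of 0.51. For 57 tested members no exon overlapped another gene, and 37 of these (64.9%) were higher and 0 lower, with a median of 0.59.

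**Figure D3:**
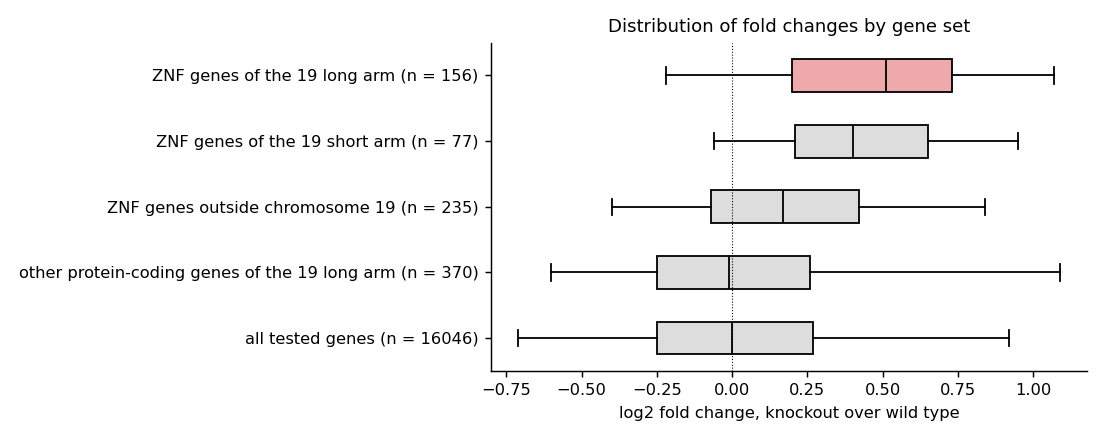
Log2 fold change (knockout over wild type) by gene set, with boxes for the middle 50% of genes, a line for the median and whiskers from the 5th to the 95th percentile. The median is 0.51 for ZNF genes of the long arm, 0.40 for those of the short arm, 0.17 for those of other chromosomes, -0.01 for other protein-coding genes of the long arm and -0.00 for all 16046 tested genes.

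ZNF genes elsewhere were also more often higher than lower. On the short arm of chromosome 19, 40 of 77 tested ZNF genes (51.9%) were higher and 1 lower, with a median of 0.40. On other chromosomes, 82 of 235 (34.9%) were higher and 19 lower, with a median of 0.17. The differences between these sets were not tested. Zinc finger genes of the long arm with other names (ZFP, ZSCAN, ZIM, ZIK and PEG3) numbered 15, of which 8 were tested, 5 rose and 0 fell, with a median of 0.50. ZFP30 was among them, at 7.65, 7.8 and 7.33 CPM in knockout and 4.35, 3.9 and 3.72 CPM in wild-type libraries, with groups apart and a log2 fold change of 0.93 (edgeR adjusted p = 0.000194).

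Fingers matching the pattern of a C2H2 domain numbered 1 to 29 per gene, with a median of 12. A KRAB A box pattern, in its common or a looser form added after the data were seen, was found in 126 of the 163 genes. Among those, 121 were tested, of which 83 (68.6%) rose and 0 fell, with a median of 0.56. Without the pattern 35 were tested, of which 14 (40.0%) rose and 2 fell, with a median of 0.20. The common form alone missed 17 of the 126, and a gene that matched neither form may still hold a KRAB domain. These groups are therefore split by pattern, not by domain. The median GC content of the canonical transcript was 42.8% in the ZNF genes and 58.9% in the other protein-coding genes of the arm. ZNF genes under 55% GC gave 91 higher and 0 lower of 133 (68.4% higher, median 0.57), and those at or above 55% gave 6 higher and 2 lower of 23 (26.1% higher, median -0.04).

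KRAB pattern and GC content overlapped as properties. Of ZNF genes without a KRAB pattern, 10 of 16 under 55% GC rose (62.5%, median 0.53), while 4 of 19 at or above 55% rose and 2 fell (median -0.04). Only 4 tested genes with a KRAB pattern were at or above 55% GC, and 2 of them rose. Other protein-coding genes of the arm showed a smaller contrast, with 25 of 79 (31.6%) higher under 55% GC and 61 of 291 (21.0%) at or above it. Over all tested protein-coding genes the shares were 23.3% and 18.7%, with medians of -0.00 and -0.05. Across the 156 genes Spearman's correlation of log2 fold change with GC content was -0.36, given as a description because all points come from the same 6 libraries. When counts were corrected for length and GC content within each library, 91 members were called higher and the median became 0.45. The share of mitochondrial counts also moved with genotype, at 3.79%, 4.1% and 3.84% in knockout libraries and 4.77%, 4.55% and 4.41% in wild-type libraries, and its part in the result was not tested.

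**Figure D4:**
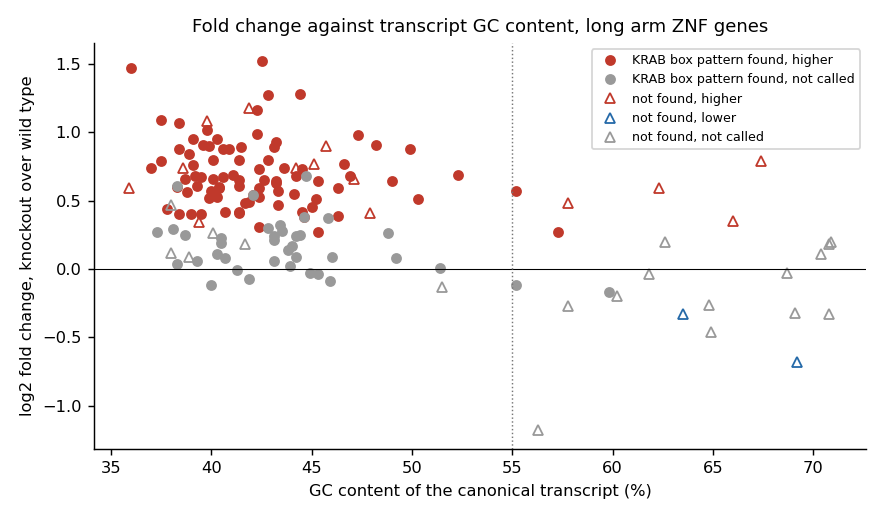
Log2 fold change (knockout over wild type) of each tested ZNF gene of the long arm against the GC content of its canonical transcript in percent, with filled circles for genes with a KRAB box pattern, open triangles for genes without one and colour for the call. Left of the dotted line at 55% the 133 genes have a median of 0.57, and right of it the 23 genes have a median of -0.04.

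Transcripts of the corepressors that work with KRAB zinc fingers, and of the wider heterochromatin machinery, were more often lower than higher. Of 26 such genes, all tested, 3 rose (11.5%), 12 fell (46.2%) and 11 did not pass the test, against 20.5% higher and 20.7% lower over all tested genes, with a median of -0.10, and none passed the test against 1.5-fold. TRIM28, the common KRAB cofactor, was at 522, 479 and 509 CPM in knockout libraries and 484, 534 and 563 CPM in wild-type libraries. Its groups overlapped, and its log2 fold change was -0.07 (edgeR adjusted p = 0.371). SETDB1 was at 71, 71.3 and 72.9 CPM in knockout and 60.6, 68.9 and 64 CPM in wild-type libraries; its knockout libraries all lay above, but its log2 fold change of 0.15 was not called (edgeR adjusted p = 0.0651).

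Among those that fell, EHMT2 (G9a), an H3 lysine methyltransferase, was at 45.6, 44.7 and 51.6 CPM in knockout libraries and 57.7, 61.5 and 68.7 CPM in wild-type libraries. HDAC2, a histone deacetylase, was at 116, 119 and 112 CPM in knockout and 141, 138 and 139 CPM in wild-type libraries. The groups of both were apart, with log2 fold changes of -0.41 and -0.27 (edgeR adjusted p = 0.000284 and 0.000399). The HP1 genes CBX5 (HP1 alpha) and CBX1 (HP1 beta) had log2 fold changes of -0.34 and -0.27 (edgeR adjusted p = 0.000884 and 0.000977), and CHD4, a chromatin remodeller of the NuRD complex, one of -0.22 (adjusted p = 0.00125). Those that rose were KDM4A and KDM4B, demethylases that remove methyl groups from H3 lysine, and MPHOSPH8, a subunit of the HUSH silencing complex. KDM4A was at 61.7, 59.2 and 67.2 CPM in knockout libraries and 48.1, 47.4 and 53.3 CPM in wild-type libraries, with groups apart and a log2 fold change of 0.34 (edgeR adjusted p = 0.000781). KDM4B and MPHOSPH8 had log2 fold changes of 0.39 and 0.28 (edgeR adjusted p = 0.00184 and 0.00166).

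**Figure D5:**
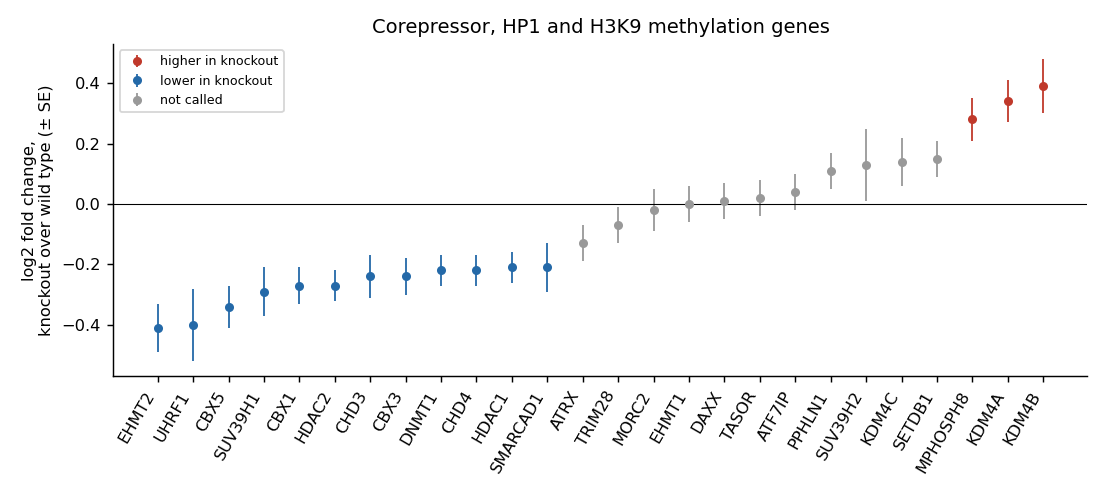
Log2 fold change (knockout over wild type) with its standard error for the 26 genes of the KRAB and heterochromatin machinery. TRIM28 lies at -0.07, EHMT2 at -0.41 and KDM4B at 0.39, and none exceeds 1.5-fold by the test.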

How the data were processed

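For 6 paired-end RNA-seq libraries the authors deposited estimated counts by gene, and no normalization was recorded for these deposited estimated counts. RNA was total RNA extracted with TRIzol, per the labels' protocols. Per the submitters' processing notes the files use GRCh38 (hg38). Which aligner, counter and strand setting were used is not given in the sources used here, so reads of overlapping and antisense genes cannot be told apart. Separate cultures rest on the series' own description of biological replicates, and p-values otherwise measure the spread between libraries.

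Gene identifiers without version were matched to GENCODE 44 (62541 of 63086). Estimated counts were rounded to whole numbers, filtered with filterByExpr (minimum count 10), scaled by TMM and tested two-sided with edgeR 4.0.16 (robust quasi-likelihood, group as the only term; R 4.3.3). Adjusted p-values are Benjamini-Hochberg over 16046 genes, with a threshold of 0.05; glmTreat tested against 1.5-fold. The fitting was tested on simulated data. Standard errors come from the fold change and its F statistic. Finger, KRAB and SCAN patterns were searched in coding sequences translated from GENCODE. Length and GC content were known for 15961 of the tested genes (99.5%). No pair of libraries matched within counting noise (chi-square per degree of freedom 3.71 to 7.11 within groups). Same-numbered libraries did not deviate together (correlations -0.03, -0.001 and 0.026).

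Alternatives were other filters, scalings, DESeq2 1.42.0, limma-voom 3.58.1, a replicate block, a length and GC correction and leaving out each library. Among called members with groups apart and at least 2 CPM, the 8 highest and 8 lowest fold changes and the next 4 of smallest p each way were named, with the smallest p of each cluster, the 4 highest levels per kb, TRIM28 and the 6 partner genes of smallest p; other names were added after their values were seen. The members and lists were chosen with earlier results of these data known.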

Additional observations from a re-analysis of the deposited data

How the results depend on the processing

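The 97 members called higher became 88 to 102 under the other filters, scalings and tools: 90 with no count filter, 96 at 1 CPM or more in 3 libraries, 102 with library size alone, 88 with DESeq2 and 95 with limma-voom. All 88 calls of DESeq2 were among the 97. Over all tested genes 3288 were higher and 3320 lower in the main fit, against 3880 and 2732 with library size alone. With the length and GC correction 2989 of all genes were higher and 3964 lower, and 91 members higher and 3 lower. Against a 1.5-fold change 12 were higher and 0 lower, or 7.69%. With single libraries left out, 80 to 94 were higher (51% to 59.9%) and 1 to 3 lower, with medians from 0.456 to 0.524, the lowest without wild-type replicate 2. The median of 0.507 became 0.553 with library size alone, where the median of all genes shifted to 0.041, and 0.449 with the length and GC correction, where it shifted to -0.04. It was 0.591 for members without exon overlap, 0.572 for those under 55% GC and -0.041 for those at 55% or more, of which 26.1% were higher. Replicate numbers did not pair the libraries; with a replicate block 92 were higher and 2 lower, with a median of 0.51, and 0.451 with the block and the length and GC correction together. The number of tested members with a negative fold change was 20, and 15 to 25 under the alternatives. Among the genes named by rule that were not called, ZNF181 and ZNF581 changed sign. Genes named after their values were seen were not followed here. ZNF181 ran from -0.279 to 0.088 over single libraries left out, the highest without wild-type replicate 1. ZNF581 was at 0.004 with library size alone, 0.008 with the length and GC correction and 0.014 with that and the block. Over single libraries left out ZNF581 ran from -0.142 to 0.04, the highest without wild-type replicate 3. The subsets by whole counts, exon overlap and GC content, and the looser KRAB pattern, were chosen after seeing the data. The causes were not tested.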
